A study of Mus musculus with 24 samples.

Results

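At the bell stage of the mouse first mandibular molar, mesenchyme taken from the lingual half-germ, on the tongue side (Bell-L), was compared with its buccal counterpart (Bell-B) over all genes of the read count table. The comparison uses 6 of the 24 libraries of the study, 3 of each part, and 21181 of the 56748 genes listed passed the filter on low counts. Both groups came from E15 embryos of ICR mice, an outbred strain, with no genetic change, no treatment and no culture. In both, the germ was cut into its parts with a fine needle, the mesenchyme was freed from the epithelium with the enzyme dispase II, and RNA was extracted with TRIzol. Germs of several embryos were pooled for each library. The sources do not settle whether the 3 libraries of a part came from separate animals, so p-values measure the spread between these libraries, which may be technical. A part is defined by where the needle passed, so it holds whatever mesenchyme, vessel, nerve or muscle lay on that side of the cut.

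A tooth germ forms from oral epithelium and from mesenchyme that descends from the cranial neural crest. At the bell stage the epithelium folds over the dental papilla, the source of odontoblasts and pulp, while mesenchyme around it becomes the dental follicle, the source of cementum, periodontal ligament and alveolar bone. The lingual side is the side of the tongue, where replacement teeth arise in mammals that make them, and the buccal side faces the cheek. Muscles of the jaw and face derive from cranial mesoderm of the pharyngeal arches, in which transcription factors such as Isl1, Msc and Tcf21 act before the myogenic factors Myf5 and Myod1.

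Between 26288515 and 29966544 read pairs were counted on genes in the 6 libraries. Values are given as CPM, counts scaled to the size of each library by the TMM method, and 3 counts came to between 0.1001 and 0.1141 CPM. CPM is not corrected for transcript length, so levels are compared between libraries and not between genes. Libraries of a part were more alike (Spearman correlation across genes 0.9967 to 0.9971) than libraries of different parts (0.9843 to 0.9848), and the first principal component, with 73.4% of the variance, separated the parts. Log2 fold changes are Bell-B over Bell-L, so that a negative value means a higher level in the lingual part. A gene was called, and counted as differentially expressed (a DEG), where edgeR's quasi-likelihood test gave a Benjamini-Hochberg adjusted p below 0.05 and the log2 fold change passed 0.5 in either direction. The labelled tissue was checked by genes of mesenchyme. Among them Prrx1 was called lingual (log2 fold change -0.57) and Pax9 buccal, just past the fold limit, whereas Msx1 was not called. Msx1, a homeobox gene of dental mesenchyme, was at 371, 358 and 388 CPM in Bell-L and 397, 373 and 407 CPM in Bell-B (log2 fold change 0.08, SE 0.034, adjusted p = 0.0792).

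Of the 21181 genes tested, 2729 were called (12.9%). They divided into 1458 genes higher in the lingual part (6.88%) and 1271 higher in the buccal part (6.00%), around a median log2 fold change of 0.00035 over all genes. The counts of calls in gene lists below are to be read against these shares. In a short list, few calls or none in a direction lie near them and are no result about the list. Large differences lay more often on the buccal side: 228 buccal and 100 lingual DEGs passed an absolute log2 fold change of 2, and 75 and 35 passed 3. For 45.5% of all genes tested the lingual and buccal libraries did not overlap, so a gap between 3 libraries and 3 is common in this comparison and is read below only together with the size of the difference.

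**Figure D1:**
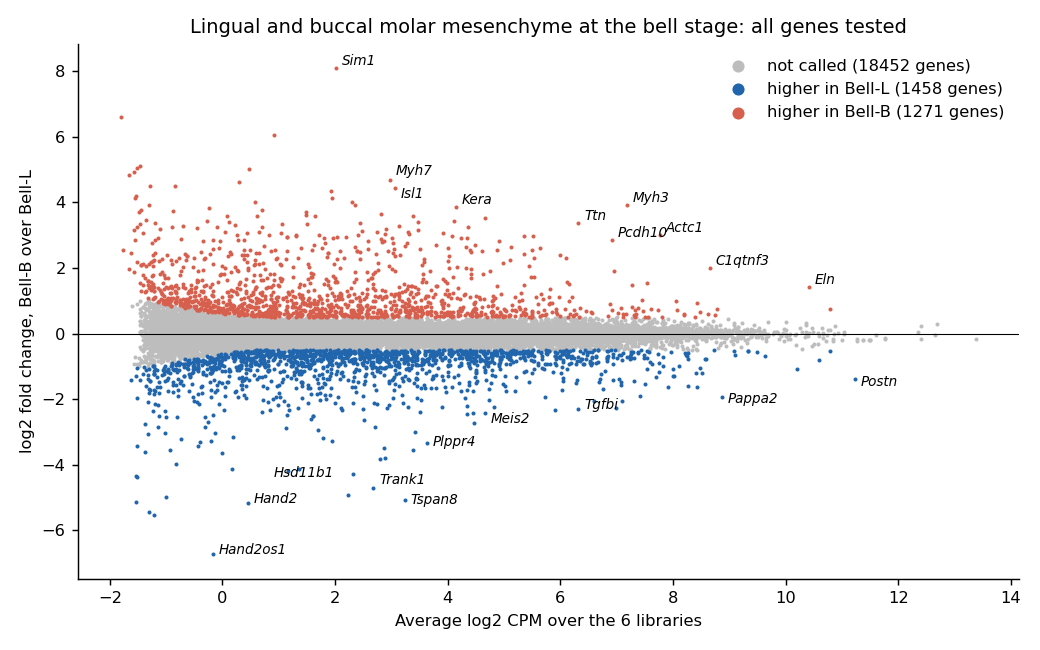
Log2 fold change of Bell-B over Bell-L against the average log2 CPM of the 6 libraries, 1 point per gene tested, with the 1458 genes called higher in Bell-L in blue and the 1271 called higher in Bell-B in red. The buccal side reaches further from 0 than the lingual side, with Sim1, Myh7 and Isl1 at its upper edge, while Hand2 and its antisense transcript Hand2os1 mark the lower edge among genes of low average.

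The genes with the widest lingual differences code for membrane and metabolic proteins as well as for transcription factors. Tspan8, a tetraspanin of the cell surface, was at 18.3, 19.4 and 18.4 CPM in Bell-L and 0.663, 0.576 and 0.402 CPM in Bell-B (log2 fold change -5.08, SE 0.13, adjusted p = 8.64e-31). This is a 33.9-fold difference, and every lingual library lies far above every buccal one. Trank1, a large protein with ankyrin repeats, was at 13.5, 12.4 and 11.9 CPM in Bell-L and 0.398, 0.396 and 0.637 CPM in Bell-B (log2 fold change -4.70, SE 0.15, adjusted p = 2.86e-27). Hsd11b1, which regenerates active glucocorticoid from its inert form, was at 10.2, 9.44 and 9.04 CPM in Bell-L and 0.464, 0.576 and 0.436 CPM in Bell-B (log2 fold change -4.27, SE 0.16, adjusted p = 3.48e-25). The purinergic receptor P2ry14 (log2 fold change -3.82, SE 0.13), the tyrosine phosphatase Ptprr (-3.78, SE 0.12) and a pair of related phospholipid phosphatase-like proteins of neurite growth, Plppr5 (-3.56, SE 0.10) and Plppr4 (-3.34, SE 0.088), followed. Plppr4 stood at 22.3, 23.1 and 23.0 CPM in Bell-L and 2.29, 2.20 and 2.28 CPM in Bell-B. Others in this set were the neurexin-family adhesion protein Cntnap4 (-3.48, SE 0.12), the orphan nuclear receptor Nr5a2 (-2.99, SE 0.093), the insulin receptor-related receptor Insrr (-2.85, SE 0.11), Ctxnd1 (-2.72, SE 0.067), the neuronal migration protein Astn1 (-2.46, SE 0.067), the cyclic nucleotide phosphodiesterase Pde1a (-2.43, SE 0.064), and Agt, the precursor of angiotensin, at 9.69, 9.15 and 10.9 CPM in Bell-L and 1.29, 2.02 and 1.51 CPM in Bell-B (log2 fold change -2.64, SE 0.13, adjusted p = 6.4e-21).

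On the buccal side the widest differences included myosins, other sarcomere genes and the transcription factors Sim1 and Isl1. Sim1, a bHLH-PAS transcription factor of the hypothalamus and of muscle precursors, had 2 counts over the 3 lingual libraries and 681 over the 3 buccal ones, where it stood at 7.79, 8.18 and 7.34 CPM. Its ratio was 326, with a 95% interval of 90 to 2700 that covers counting error only (adjusted p = 1.89e-25). Isl1, a LIM homeobox factor of pharyngeal mesoderm and motor neurons, was at 0.461, 0.922 and 0.739 CPM in Bell-L and 15.3, 15.4 and 15.9 CPM in Bell-B (log2 fold change 4.44, SE 0.13, adjusted p = 2.83e-28). Clec3b, the plasminogen-binding protein tetranectin, was at 0.50, 0.774 and 0.403 CPM in Bell-L and 8.88, 9.69 and 8.35 CPM in Bell-B (log2 fold change 4.00, SE 0.16, adjusted p = 1.46e-23). Oxtr, the oxytocin receptor, followed at 0.846, 0.848 and 1.04 CPM in Bell-L and 9.54, 9.62 and 9.66 CPM in Bell-B (log2 fold change 3.38, SE 0.13, adjusted p = 7.22e-24). Tpsb2, a tryptase of mast cell granules, was at 2.81, 3.13 and 2.59 CPM in Bell-L and 31.0, 30.3 and 31.5 CPM in Bell-B (log2 fold change 3.45, SE 0.081, adjusted p = 6.04e-32). For each of these 5 genes the lowest buccal library exceeded the highest lingual one several times over.

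**Figure D2:**
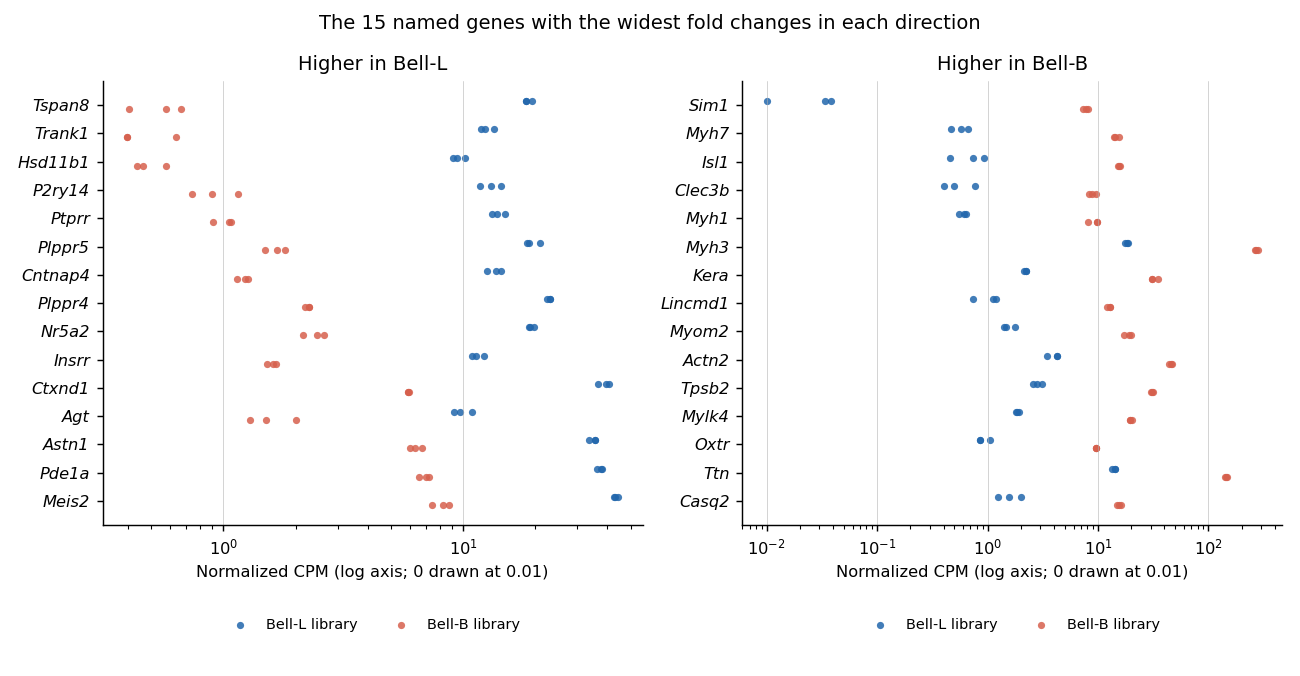
Normalized CPM of the 15 genes with the widest log2 fold changes in each direction among called genes with an average log2 CPM of at least 2, on log axes, with 1 point per library (blue Bell-L, red Bell-B). The 3 libraries of a part lie close together for each gene, and for Sim1 all lingual libraries lie below 0.04 CPM.

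Ranked instead by the size of the difference in CPM, which favours abundant and long transcripts, the lingual part was led by secreted and matrix genes. Postn, a matricellular protein of the dental follicle and periodontal ligament, was at 3432, 3541 and 3465 CPM in Bell-L and 1338, 1337 and 1307 CPM in Bell-B (log2 fold change -1.39, SE 0.032, adjusted p = 2.46e-32). Pappa2, a protease that frees IGF from its binding proteins, was at 735, 746 and 746 CPM in Bell-L and 195, 195 and 195 CPM in Bell-B (log2 fold change -1.93, SE 0.032, adjusted p = 2.5e-37). Plagl1, an imprinted zinc finger gene of embryonic growth, was at 1558, 1648 and 1614 CPM in Bell-L and 739.8, 787 and 749 CPM in Bell-B (log2 fold change -1.08, SE 0.033, adjusted p = 5.02e-28). Also in this set were Col12a1 (log2 fold change -0.81, SE 0.031), the fibronectin gene Fn1 (-0.53, SE 0.031), the glypican Gpc3 (-0.68, SE 0.031), the membrane metallopeptidase Mme (-1.63, SE 0.035), Ogn (-1.60, SE 0.038), Tnc (-1.21, SE 0.031) and the limb and face homeobox gene Prrx1 (-0.57, SE 0.033).

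The buccal part was led in the same ranking by Eln, the elastin gene, at 771, 717 and 732 CPM in Bell-L and 1991, 1912 and 2008 CPM in Bell-B (log2 fold change 1.41, SE 0.033, adjusted p = 7.78e-32). C1qtnf3, a secreted C1q and TNF-related protein, was at 157, 166 and 161 CPM in Bell-L and 647, 648 and 634 CPM in Bell-B (log2 fold change 2.00, SE 0.033, adjusted p = 2.5e-37). Pcdh10, a protocadherin of cell adhesion, was at 31.6, 28.7 and 27.4 CPM in Bell-L and 212, 211 and 211 CPM in Bell-B (log2 fold change 2.85, SE 0.040, adjusted p = 1.11e-39). The set was completed by Actc1 and Myh3 of muscle, Col26a1 (log2 fold change 0.74, SE 0.033), the bHLH factor Tcf4 (0.94, SE 0.033), Col14a1 (1.54, SE 0.032), the chemokine Cxcl12 (1.00, SE 0.031) and the ribosomal RNA gene Rn18s-rs5. Rn18s-rs5 was at 1847, 1060.0 and 1068 CPM in Bell-L and 1391, 2964 and 2261 CPM in Bell-B (log2 fold change 0.73, SE 0.14, adjusted p = 2.24e-05). Its libraries overlapped between the parts, and lingual replicate 1 lay above buccal replicate 1. Its log2 fold change was 0.46 without buccal replicate 2, and DESeq2 did not call it (adjusted p = 0.22). For every other gene named in the text as called, no library of one part reached into the range of the other.

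Skeletal muscle genes were largely higher in the buccal part, from precursor factors to the sarcomere and the nerve contact. Of 45 tested contractile and neuromuscular junction genes, 37 were called higher in the buccal part and 3 in the lingual part, with a median log2 fold change of 2.55. For comparison, 6.88% and 6.00% of all genes tested were called in these directions. The summed level of the list was 604 to 611 CPM in the lingual libraries and 2179.6 to 2242 CPM in the buccal ones. In bulk RNA, fewer cells of a type and less RNA per cell cannot be told apart. Myh3, the embryonic myosin heavy chain, was at 18.7, 17.6 and 18.1 CPM in Bell-L and 272, 265 and 281 CPM in Bell-B (log2 fold change 3.91, SE 0.041, adjusted p = 6.05e-44). Ttn, the giant spring protein of the sarcomere, was at 14.1, 13.5 and 14.3 CPM in Bell-L and 145, 147 and 142 CPM in Bell-B (log2 fold change 3.37, SE 0.043, adjusted p = 4.16e-41), and Actc1, the cardiac-type actin that embryonic skeletal muscle also uses, at 49.2, 47.7 and 47.0 CPM in Bell-L and 378, 393 and 389 CPM in Bell-B (log2 fold change 3.01, SE 0.035, adjusted p = 2.15e-42). None of the lingual libraries was without these transcripts, but each buccal library held several times more.

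Isoforms of both slow and fast fibers were on the buccal side. The slow myosin Myh7 was at 0.577, 0.664 and 0.47 CPM in Bell-L and 15.5, 14.1 and 14.2 CPM in Bell-B (log2 fold change 4.68, SE 0.14, adjusted p = 1.68e-28), and the fast myosin Myh1 at 0.615, 0.553 and 0.638 CPM in Bell-L and 9.84, 8.18 and 9.72 CPM in Bell-B (log2 fold change 3.93, SE 0.16, adjusted p = 5.37e-24). The myosin heavy chain genes Myh3, Myh2, Myh1, Myh4, Myh8 and Myh13 lie next to each other on chromosome 11 (66969126 to 67262412, GRCm39), and all 6 were called buccal, from 1.38 for Myh13 to 3.93 for Myh1 on the log2 scale. Thin filament and Z-disc genes moved with them, as in Actn2 at 4.23, 3.47 and 4.27 CPM in Bell-L and 47.0, 44.3 and 46.2 CPM in Bell-B (log2 fold change 3.52, SE 0.072, adjusted p = 4.71e-34). M-band protein Myom2 (log2 fold change 3.57, SE 0.11), calcium store protein Casq2 (3.28, SE 0.11), the myosin light chain kinase Mylk4 (3.41, SE 0.096) and the calcium channel subunit Cacng1 (3.32, SE 0.30) were also higher. Lincmd1, the noncoding host transcript of muscle microRNAs, was at 1.11, 1.18 and 0.739 CPM in Bell-L and 12.8, 12.8 and 12.2 CPM in Bell-B (log2 fold change 3.64, SE 0.13, adjusted p = 1.14e-25).

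The machinery of the neuromuscular junction followed the same direction. Chrng, the fetal acetylcholine receptor subunit, was at 2.42, 2.29 and 1.81 CPM in Bell-L and 20.5, 17.7 and 20.1 CPM in Bell-B (log2 fold change 3.17, SE 0.10, adjusted p = 3.15e-27). The alpha subunit Chrna1 (log2 fold change 2.58, SE 0.093), the delta subunit Chrnd (2.77, SE 0.11), the receptor kinase Musk (2.32, SE 0.20) and the clustering protein Rapsn (2.58, SE 0.12) were called as well. The 3 exceptions on the lingual side were Ryr3, a calcium release channel that is not confined to muscle, at 47.2, 47.0 and 47.2 CPM in Bell-L and 10.5, 9.73 and 9.42 CPM in Bell-B (log2 fold change -2.25, SE 0.058, adjusted p = 1.01e-30), Mybpc1, the slow myosin binding protein C, at 34.4, 34.7 and 36.0 CPM in Bell-L and 17.4, 18.7 and 17.4 CPM in Bell-B (log2 fold change -0.98, SE 0.054, adjusted p = 6.52e-19), and Nebl, the nebulin relative nebulette (log2 fold change -0.90, SE 0.088, adjusted p = 1.98e-11).

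Among 23 regulators of the muscle lineage, 14 were called buccal and 2 lingual (median log2 fold change 1.41). Genes of successive steps were among them. Pax7, of muscle stem and progenitor cells, was at 2.46, 2.95 and 2.15 CPM in Bell-L and 14.5, 16.0 and 17.7 CPM in Bell-B (log2 fold change 2.68, SE 0.11, adjusted p = 6.08e-24). Myf5, an early myogenic bHLH factor, was at 0.461, 0.295 and 0.605 CPM in Bell-L and 5.60, 5.69 and 5.40 CPM in Bell-B (log2 fold change 3.59, SE 0.19, adjusted p = 6.39e-20). Myod1, which commits myoblasts, was at 5.77, 4.91 and 5.44 CPM in Bell-L and 34.3, 33.8 and 33.5 CPM in Bell-B (log2 fold change 2.65, SE 0.070, adjusted p = 2.58e-30), and Myog, which drives their differentiation, at 18.5, 14.9 and 16.4 CPM in Bell-L and 68.8, 66.9 and 72.0 CPM in Bell-B (log2 fold change 2.06, SE 0.053, adjusted p = 1.75e-30). Genes of myoblast fusion were included, with Mymk at 1.96, 1.84 and 1.68 CPM in Bell-L and 13.0, 14.2 and 14.4 CPM in Bell-B (log2 fold change 2.93, SE 0.11, adjusted p = 5.65e-25) and Mymx at a log2 fold change of 2.47, SE 0.16. The pharyngeal mesoderm factors Msc (2.20, SE 0.076) and Tcf21 (2.31, SE 0.34) were also buccal, as were the cell adhesion gene Cdh15 (2.72, SE 0.074), Lbx1 of migrating precursors (1.41, SE 0.30) and the phagocytic receptor Megf10 of satellite cells (0.66, SE 0.053). Myf6 had 4 counts over the lingual libraries and 46 over the buccal ones, a ratio of 11 with a 95% counting interval of 4.02 to 42.2.

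Pax3 was the clear exception among the regulators. This paired-box gene of trunk and limb muscle precursors and of neural crest was at 4.80, 5.27 and 5.27 CPM in Bell-L and 0.696, 0.973 and 1.04 CPM in Bell-B (log2 fold change -2.50, SE 0.16, adjusted p = 8.18e-17), with the lingual libraries all above the buccal ones. The myocyte enhancer factors Mef2a and Mef2c were not called, with log2 fold changes of -0.16 and -0.14.

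Promoter sequence is shown for muscle genes because myogenic bHLH proteins bind the E-box, written CANNTG, and prefer the spelling CAGCTG. Both spellings read the same on either strand, and every CAGCTG is also a CANNTG. The 250 bases before the start of the canonical transcript were read from GRCm39 for 14962 tested protein-coding genes. CANNTG was present in 61.0% of these windows and CAGCTG in 11.6%. Among all protein-coding genes called buccal the shares were 66.9% and 17.3%, and among those called lingual 63.9% and 12.8%. Of the 37 contractile and junction genes called buccal, 34 held CANNTG (91.9%) and 10 held CAGCTG, and of the 14 regulators called buccal, 8 (57.1%) and 5 (35.7%) did. The windows of Chrng and of the fast skeletal light chain Mylpf are printed as 2 of the genes holding CAGCTG, both on the plus strand, with CAGCTG in capitals. They are Chrng at chr1:87133242-87133491 and Mylpf at chr7:126810530-126810779 (GRCm39).
Chrng: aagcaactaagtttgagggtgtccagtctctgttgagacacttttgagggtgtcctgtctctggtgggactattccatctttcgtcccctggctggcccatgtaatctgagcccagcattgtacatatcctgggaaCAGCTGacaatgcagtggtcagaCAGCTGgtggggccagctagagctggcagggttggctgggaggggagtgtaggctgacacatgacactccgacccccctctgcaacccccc
Mylpf: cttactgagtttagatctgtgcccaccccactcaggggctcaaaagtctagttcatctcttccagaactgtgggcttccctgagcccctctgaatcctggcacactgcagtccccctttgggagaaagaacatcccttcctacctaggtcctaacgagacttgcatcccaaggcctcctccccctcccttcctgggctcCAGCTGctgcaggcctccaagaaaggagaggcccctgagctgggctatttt
A match describes the letters of the window and not binding by a factor. Mylpf was at 11.8, 10.1 and 9.00 CPM in Bell-L and 83.1, 74.0 and 82.8 CPM in Bell-B (log2 fold change 2.96, SE 0.061, adjusted p = 7.02e-34), while Actn2, Ryr1 and Smyd1, which were higher too (log2 fold changes 3.52, 2.44 and 2.76), held no CANNTG in this window.

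Muscle transcripts were mostly lower in the undivided mesenchyme of the same stage (Bell-W, 3 libraries). Of 45 contractile and junction genes, 35 were lower in every Bell-W library than in any library of either part, as were 14 of 23 regulators, and none was higher in every one. With the 9 bell-stage libraries scaled together, the contractile list summed to 339 to 389.8 CPM in Bell-W, 612 to 619 in Bell-L and 2205 to 2271 in Bell-B. Myog was at 1.14, 0.468 and 1.33 CPM and Myh3 at 0.823, 0.681 and 1.76 CPM in the Bell-W libraries. Several of the widest buccal DEGs were below both parts as well, with Isl1 at 0.392, 0.0852 and 0.0995, Kera at 0.627, 0.766 and 0.763 and Tbx15 at 2.31, 1.62 and 1.49 CPM. Tspan8, at 1.53, 1.32 and 1.23 CPM, lay between the parts. The cause was not tested.

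Over all DEGs, the mean log2 level of Bell-W lay between those of the parts for 56.2%, compared with 26% of all genes tested. For lingual DEGs this share was 66% and for buccal DEGs 44.8%. DEGs were chosen for a gap between the same part libraries, and a wider gap holds another value more often. The contrast with all genes tested is therefore no evidence that Bell-W is a mean of the parts. In 1 Bell-W library the epithelial marker list summed to 3707 CPM, against 933 and 1024 CPM in the others. In those others Rn18s-rs5 took 1.43% and 1.30% of the counts, compared with 0.105% to 0.298% in the parts. Some of the widest lingual genes were highest in the Bell-W library with the high epithelial sum. Trank1 was at 5.87 CPM there against 0.902 and 0.894, and Agt at 7.43 CPM against 1.92 and 3.41. Others, such as Plppr5 and Pde1a, were lowest there. The part of epithelial RNA in these differences was not tested.

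**Figure D3:**
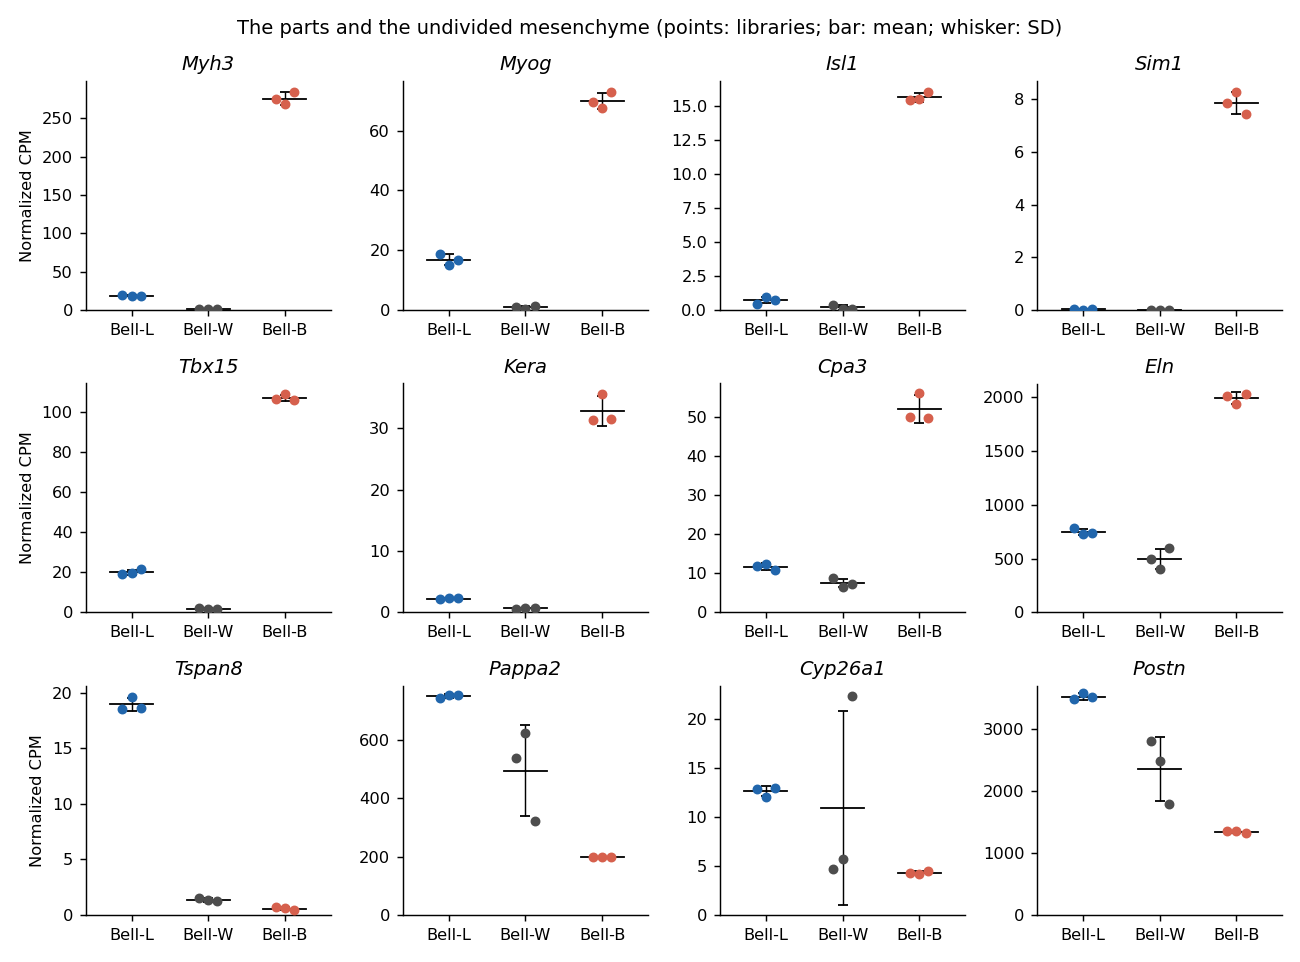
Normalized CPM of 12 genes in the 3 libraries each of Bell-L, the undivided mesenchyme Bell-W and Bell-B, scaled together, with the mean as a bar and the SD as a whisker on axes from 0. Myh3, Myog, Isl1, Sim1, Tbx15, Kera, Cpa3 and Eln have their lowest mean in Bell-W, whereas Postn and Pappa2 of Bell-W lie between the parts.

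Markers of other cell types moved in both directions. Of 25 epithelial markers, 14 were called lingual and 0 buccal, with a median log2 fold change of -0.55 and a summed level of 1498 to 1562 CPM in Bell-L and 1015 to 1046 CPM in Bell-B. The defining marker Epcam was at 34.1, 35.3 and 34.9 CPM in Bell-L and 22.9, 23.7 and 24.6 CPM in Bell-B (log2 fold change -0.55, SE 0.051, adjusted p = 5.54e-12), and none of the list was at 0. Some keratin genes led it, as in Krt13 at 72.8, 66.4 and 67.7 CPM in Bell-L and 33.7, 32.8 and 34.1 CPM in Bell-B (log2 fold change -1.04, SE 0.043, adjusted p = 3.69e-23) and Krt19 (log2 fold change -1.18, SE 0.11, adjusted p = 1.26e-11). The keratins Krt8 and Krt18 were the 2 members with a positive log2 fold change, at most 0.28, and were not called. Epithelial transcripts were thus present in both parts after the dispase step.

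All 18 macrophage markers had a negative log2 fold change. Of these, 13 were called lingual and 0 buccal, and the list summed to 532 to 538 CPM in Bell-L and 308 to 314 CPM in Bell-B. Mrc1, the mannose receptor of tissue-resident macrophages, was at 112, 119 and 115 CPM in Bell-L and 43.7, 45.2 and 40.8 CPM in Bell-B (log2 fold change -1.42, SE 0.039, adjusted p = 1.44e-29). The growth factor receptor Csf1r (log2 fold change -0.72, SE 0.041), the complement gene C1qc (-0.91, SE 0.054), the platelet and macrophage chemokine Pf4 (-1.67, SE 0.085) and the hemoglobin scavenger receptor Cd163 (-1.66, SE 0.19) were also higher.

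Schwann cell and glial markers were split. Of 14, 8 were called buccal, including Sox10, the defining transcription factor of the lineage, at 5.77, 4.54 and 5.07 CPM in Bell-L and 12.1, 11.5 and 11.5 CPM in Bell-B (log2 fold change 1.19, SE 0.091, adjusted p = 1.56e-14), the neuregulin receptor Erbb3 (1.20, SE 0.052) and Foxd3 (0.99, SE 0.23). The 3 lingual members were S100b (-1.61, SE 0.074), Ngfr (-0.70, SE 0.036) and Gfra3 (-0.93, SE 0.092). Although more members were called buccal, the list summed to 200 to 205 CPM in Bell-L and 176 to 180 CPM in Bell-B. Several members of the list are also expressed by other cells. Among 14 neuronal markers, 5 were called buccal and 1 lingual. The neurofilament genes Nefl (1.44, SE 0.086) and Nefm (1.43, SE 0.090) were buccal, and the granule protein Scg2 was lingual at 29.3, 28.8 and 30.1 CPM in Bell-L and 9.08, 8.65 and 8.52 CPM in Bell-B (log2 fold change -1.75, SE 0.064, adjusted p = 2.94e-25).

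Of 20 endothelial markers 1 was called, Erg (log2 fold change -0.64, SE 0.059, adjusted p = 4.57e-12), and the defining marker Pecam1 was at 103, 102 and 104 CPM in Bell-L and 99.7, 101 and 100.3 CPM in Bell-B (log2 fold change -0.04, SE 0.033, adjusted p = 0.424). None of 13 erythroid markers and none of 3 melanocyte markers was called. In 5 erythroid markers every lingual library lay higher than any buccal one, as in 23.5% of all genes tested. Of 13 smooth muscle and pericyte markers, 3 were buccal and 1 lingual. Acta2, which smooth muscle shares with early skeletal muscle and follicle cells, was at 54.3, 50.5 and 51.6 CPM in Bell-L and 195, 201 and 192 CPM in Bell-B (log2 fold change 1.91, SE 0.036, adjusted p = 2.74e-35). Osteoclast markers gave 1 lingual call of 11, in the RANK gene Tnfrsf11a (log2 fold change -0.63, SE 0.091, adjusted p = 2.32e-07).

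Of 22 immediate early and heat shock genes, which handling of tissue can induce, 9 were called lingual and 0 buccal. Fosl2 was at 369, 354 and 368 CPM in Bell-L and 149, 146 and 149 CPM in Bell-B (log2 fold change -1.30, SE 0.032, adjusted p = 2.36e-31), whereas Fos itself was at 1369, 1356 and 1343 CPM in Bell-L and 1237, 1289 and 1303 CPM in Bell-B (log2 fold change -0.09, SE 0.031, adjusted p = 0.0255) and was not called. None of 5 sex-linked genes was called. With the 9 bell-stage libraries scaled together, Xist was at 1226, 1268 and 1262 CPM in Bell-L and 1294, 1341 and 1269 CPM in Bell-B. In Bell-W it varied more, at 2886, 980 and 350 CPM. The mix of sexes in the libraries, and whether libraries shared embryos, was not tested. None of 14 reference genes commonly used for RT-qPCR was called, and their median log2 fold change was 0.01. The part that these cell types and responses have in the differences described here was not tested.

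**Figure D4:**
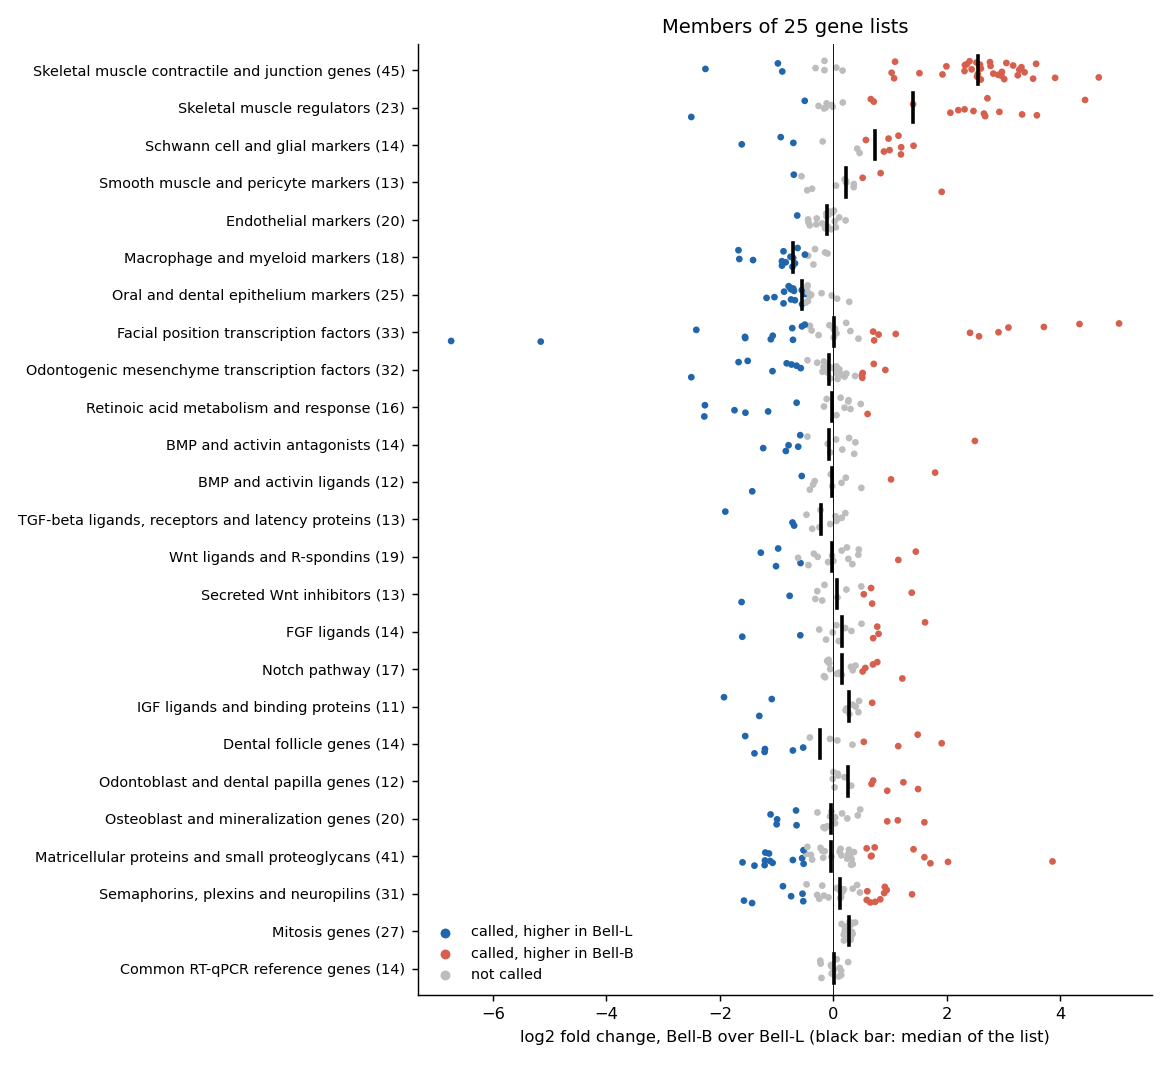
Log2 fold changes of the tested members of 25 gene lists, with the number tested in parentheses, called members in blue (Bell-L) or red (Bell-B) and the median as a black bar. The contractile list has its median at 2.55, whereas macrophage and epithelial markers have negative medians.

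Transcription factors of position in the face were called in both directions. Of 33 tested position factors, 11 were lingual and 11 buccal, of which 3 and 7 passed an absolute log2 fold change of 2. Lingual members were led by the antisense transcript Hand2os1 and by Hand2. Hand2, the bHLH factor of the distal and ventral pharyngeal arches, was at 1.88, 3.13 and 2.72 CPM in Bell-L and 0.0331, 0 and 0.168 CPM in Bell-B (log2 fold change -5.16, SE 0.38, adjusted p = 7.48e-15). Its neighbouring antisense transcript Hand2os1 had 139 counts over the lingual libraries and 1 over the buccal ones, a ratio of 145 with a 95% counting interval of 25.6 to 5770. Hand2 and Hand2os1 overlap, and since the counting ignored strand, reads of one cannot be told from reads of the other except where their exons are apart. Meis2, a TALE homeobox cofactor of cranial neural crest, was at 44.4, 43.2 and 42.6 CPM in Bell-L and 8.71, 7.39 and 8.25 CPM in Bell-B (log2 fold change -2.42, SE 0.062, adjusted p = 1.21e-30), and Foxf1, a forkhead gene that hedgehog signals activate in mesenchyme, at 196, 199 and 208 CPM in Bell-L and 70.3, 67.8 and 67.2 CPM in Bell-B (log2 fold change -1.55, SE 0.035, adjusted p = 1.24e-32). Foxl1 (-1.56, SE 0.27) and Foxd1 (-1.10, SE 0.16) were lingual as well. In Bell-W, Meis2 was at 10.9, 8.30 and 25.4 CPM, highest in the library with the high epithelial sum. The part of epithelial RNA in the Meis2 difference was not tested.

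Buccal position factors included T-box, zinc finger and homeobox genes. Tbx15, of craniofacial and limb mesenchyme and of fast muscle fibers, was at 19.1, 19.2 and 21.2 CPM in Bell-L and 105, 108 and 105 CPM in Bell-B (log2 fold change 2.41, SE 0.044, adjusted p = 9.51e-36). Tbx18 was at 4.38, 4.50 and 5.04 CPM in Bell-L and 35.1, 35.0 and 35.0 CPM in Bell-B (log2 fold change 2.91, SE 0.071, adjusted p = 1.86e-31). The related repressors Tbx3 (1.10, SE 0.040) and Tbx2 (0.80, SE 0.039) were called at smaller folds. Zic1, a zinc finger gene of neural crest and dorsal mesoderm, was at 0.423, 0.221 and 0.37 CPM in Bell-L and 7.42, 6.12 and 7.17 CPM in Bell-B (log2 fold change 4.34, SE 0.19, adjusted p = 2.67e-22), and its neighbour Zic4 had 1 count over the lingual and 47 over the buccal libraries (ratio 45, 95% counting interval 7.7 to 1820). Emx2 was at 0.308, 0.479 and 0.336 CPM in Bell-L and 4.61, 5.62 and 4.66 CPM in Bell-B (log2 fold change 3.71, SE 0.20, adjusted p = 3.49e-19), and Nkx2-5, of heart and pharyngeal mesoderm, was at 0.192, 0.148 and 0.235 CPM in Bell-L and 1.99, 1.26 and 1.74 CPM in Bell-B (log2 fold change 3.09, SE 0.32, adjusted p = 7.61e-11).

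Hox genes are silent in most of the first pharyngeal arch. Of 39 listed, 16 had no count in any of the 6 libraries and 5 passed the filter, of which 4 were called buccal. Hoxd8 was at 2.38, 2.18 and 2.89 CPM in Bell-L and 5.17, 5.66 and 5.80 CPM in Bell-B (log2 fold change 1.15, SE 0.13, adjusted p = 5.49e-10), and Hoxd4, whose exons overlap those of other genes over 52.31% of their length, was at 0.346, 0.221 and 0.437 CPM in Bell-L and 0.828, 0.54 and 1.04 CPM in Bell-B (log2 fold change 1.25, SE 0.34, adjusted p = 0.00262). Hoxc4 had no count in Bell-L and 37 over the buccal libraries, which is at least 3.89-fold higher when set against 3 counts per library. Hoxc5 had 4 counts against 51 (ratio 12.2, 95% counting interval 4.49 to 46.6).

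The odontogenic transcription factors divided into 8 lingual and 5 buccal calls among 32. Lingual members were the Aristaless-type genes Alx4, at 27.5, 27.7 and 26.9 CPM in Bell-L and 9.91, 8.86 and 10.0 CPM in Bell-B (log2 fold change -1.51, SE 0.064, adjusted p = 7.09e-23), and Alx1 (-1.67, SE 0.13), which pattern the midface, as well as Runx1 (-1.07, SE 0.053), Six2 (-0.74, SE 0.036) and Tfap2a (-0.82, SE 0.080). Runx1 was at 42.6, 39.6 and 42.6 CPM in Bell-L and 20.9, 19.7 and 18.8 CPM in Bell-B. In Bell-W, Tfap2a was at 4.51, 4.39 and 17.8 CPM, highest in the library with the high epithelial sum. The part of epithelial RNA in its difference was not tested. Buccal members included Runx3 (0.92, SE 0.072) and Eya1 (0.71, SE 0.043), and Pax9 and Barx1, which mark the molar field, were called just past the fold limit, at 0.51 and 0.50, and fell short of it without 1 of the libraries (0.493 for Pax9 without buccal replicate 2, 0.455 for Barx1 without lingual replicate 2 and 0.485 without buccal replicate 3). The core genes Msx1, Msx2, Lhx6, Lhx8, Dlx1 and Dlx2 were not called, at log2 fold changes of 0.08, -0.06, 0.20, 0.38, 0.16 and 0.07.

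Retinoic acid, the signalling form of vitamin A, is made by Aldh1a enzymes and destroyed by Cyp26 enzymes, whose genes it induces in many tissues. Of 16 genes of this pathway, 6 were lingual and 1 buccal. All 3 degrading enzymes were lingual. Cyp26b1 was at 159.6, 151 and 149.7 CPM in Bell-L and 70.5, 65.6 and 71.0 CPM in Bell-B (log2 fold change -1.15, SE 0.036, adjusted p = 2e-27), Cyp26c1 at 34.8, 31.3 and 35.2 CPM in Bell-L and 9.84, 9.58 and 10.9 CPM in Bell-B (log2 fold change -1.74, SE 0.064, adjusted p = 5.17e-25) and Cyp26a1 at 12.7, 11.9 and 12.8 CPM in Bell-L and 4.21, 4.11 and 4.43 CPM in Bell-B (log2 fold change -1.55, SE 0.090, adjusted p = 2.63e-18). The synthesizing enzymes were divided, as Aldh1a1 was lingual at 4.07, 4.09 and 4.27 CPM in Bell-L and 0.828, 0.829 and 0.905 CPM in Bell-B (log2 fold change -2.27, SE 0.17, adjusted p = 4.88e-15) and Aldh1a3 was buccal at 42.5, 42.4 and 41.9 CPM in Bell-L and 65.4, 65.8 and 61.6 CPM in Bell-B (log2 fold change 0.60, SE 0.041, adjusted p = 4.23e-16). The retinol carrier Rbp4 was at 13.0, 12.6 and 12.3 CPM in Bell-L and 2.58, 2.63 and 2.68 CPM in Bell-B (log2 fold change -2.26, SE 0.099, adjusted p = 1.82e-22), and the binding protein Crabp1 also was lingual (-0.65, SE 0.045). The receptors Rara, Rarb and Rarg were not called, at 0.27, -0.12 and 0.13.

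The window before Cyp26a1 is shown because it holds the direct repeat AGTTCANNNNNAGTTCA, a spelling of the repeat that retinoic acid receptors bind, searched on both strands. Among the 14962 windows it is the 1 that holds this spelling (0.00668%). No other spelling of the repeat was searched, so this share does not tell how rare such repeats are. The windows of Cyp26b1, Cyp26c1, Aldh1a1, Rbp4 and Crabp1, also lingual, and of the buccal Aldh1a3 do not hold it. The repeat, in capitals, is read on the opposite strand and takes the 17 bases just before the transcript start. The sequence is on the plus strand at chr19:37685991-37686240 (GRCm39).
Cyp26a1: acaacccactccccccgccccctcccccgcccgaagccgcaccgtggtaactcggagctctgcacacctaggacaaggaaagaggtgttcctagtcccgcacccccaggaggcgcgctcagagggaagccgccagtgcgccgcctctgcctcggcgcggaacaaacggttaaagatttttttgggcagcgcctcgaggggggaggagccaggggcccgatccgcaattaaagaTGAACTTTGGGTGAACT
Cyp26a1 and Cyp26c1 are neighbours on chromosome 19. In Bell-W, Cyp26a1 was at 4.70, 5.66 and 22.3 CPM and Cyp26c1 at 10.7, 10.1 and 43.8 CPM. The highest value of each, from the library with the high epithelial sum, lay above both parts, and the part of epithelial RNA in it was not tested.

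Among BMP and activin ligands 2 of 12 were lingual and 2 buccal. Bmp2, a ligand of bone and tooth differentiation, was at 22.4, 20.9 and 23.1 CPM in Bell-L and 8.05, 8.65 and 8.01 CPM in Bell-B (log2 fold change -1.43, SE 0.070, adjusted p = 8.37e-21), and the activin subunit Inhba, needed for molar development, at 182, 193 and 185 CPM in Bell-L and 125, 129.6 and 126 CPM in Bell-B (log2 fold change -0.56, SE 0.033, adjusted p = 4.25e-18). Gdf7 was buccal (1.02, SE 0.11), and Lefty1, an inhibitor of Nodal, was called buccal at 0.154, 0.0738 and 0.302 CPM in Bell-L and 0.563, 0.504 and 0.838 CPM in Bell-B (log2 fold change 1.79, SE 0.41, adjusted p = 0.000494), levels close to the count floor. Of 14 extracellular antagonists 5 were lingual, 1 was buccal and 8 were not called. Fst, which traps activin, was at 77.5, 76.1 and 79.2 CPM in Bell-L and 44.6, 47.8 and 42.5 CPM in Bell-B (log2 fold change -0.79, SE 0.041, adjusted p = 6.56e-20), and Grem1 at 12.0, 11.9 and 11.8 CPM in Bell-L and 4.87, 4.90 and 5.36 CPM in Bell-B (log2 fold change -1.24, SE 0.087, adjusted p = 1.35e-15). Chrdl1 (-0.84, SE 0.061) and Nbl1 (-0.58, SE 0.033) went the same way. Bmper, a modulator that can raise or lower BMP activity, was the buccal one at 6.57, 6.20 and 6.15 CPM in Bell-L and 36.4, 36.0 and 34.2 CPM in Bell-B (log2 fold change 2.50, SE 0.066, adjusted p = 4.34e-30).

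The type I receptor Bmpr1b was buccal at 1.11, 1.29 and 1.01 CPM in Bell-L and 9.34, 9.37 and 8.68 CPM in Bell-B (log2 fold change 3.00, SE 0.13, adjusted p = 1.89e-22), while Bmpr1a was not called (log2 fold change -0.05, SE 0.034, adjusted p = 0.289). Of 18 receptors and response genes 2 were lingual and 1 buccal. TGF-beta genes gave 3 lingual and 0 buccal calls of 13. Tgfbi, an adhesion protein that TGF-beta induces, was at 276, 269 and 268 CPM in Bell-L and 73.3, 70.6 and 73.1 CPM in Bell-B (log2 fold change -1.90, SE 0.033, adjusted p = 2.45e-36), with the ligand Tgfb3 (-0.69, SE 0.033) and the receptor Tgfbr2 (-0.72, SE 0.032) in the same direction.

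Wnt ligands and their R-spondin amplifiers divided, 4 lingual and 2 buccal of 19. Wnt11 was lingual at 40.5, 37.2 and 39.3 CPM in Bell-L and 16.9, 14.5 and 16.8 CPM in Bell-B (log2 fold change -1.28, SE 0.058, adjusted p = 5.77e-22), with Wnt2 (-1.01, SE 0.11) and Rspo3 (-0.97, SE 0.068). Wnt16 was buccal at 7.19, 6.97 and 7.66 CPM in Bell-L and 19.9, 19.7 and 20.3 CPM in Bell-B (log2 fold change 1.45, SE 0.072, adjusted p = 1.15e-20), with Wnt5b (1.15, SE 0.074). Secreted inhibitors of Wnt gave 2 lingual and 4 buccal calls of 13. Dkk2 was at 359.8, 371 and 360.3 CPM in Bell-L and 116, 120.3 and 119.5 CPM in Bell-B (log2 fold change -1.62, SE 0.032, adjusted p = 1.89e-34) and Sfrp2 at 492, 467 and 505 CPM in Bell-L and 284, 286 and 289 CPM in Bell-B (log2 fold change -0.77, SE 0.032, adjusted p = 4.01e-23), whereas Sfrp5 (1.38, SE 0.14), Dkk1 (0.68, SE 0.077) and Notum (0.67, SE 0.065) were buccal. Of 23 receptors and feedback targets, 3 were lingual, among them the R-spondin receptor Lgr5 at 152, 157 and 149.5 CPM in Bell-L and 95.1, 94.4 and 92.0 CPM in Bell-B (log2 fold change -0.70, SE 0.033, adjusted p = 2.54e-21) and the target Sp5 (-1.62, SE 0.14). Lef1, a nuclear partner of beta-catenin, was buccal (0.59, SE 0.036), and the general feedback gene Axin2 was at 116, 117 and 113 CPM in Bell-L and 112, 110.1 and 113 CPM in Bell-B (log2 fold change -0.05, SE 0.033, adjusted p = 0.286), which is not called.

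FGF ligands gave 2 lingual and 4 buccal calls of 14. Fgf3, which dental papilla makes, was buccal at 9.15, 8.45 and 8.13 CPM in Bell-L and 15.5, 13.3 and 13.0 CPM in Bell-B (log2 fold change 0.70, SE 0.081, adjusted p = 1.39e-09), as was Fgf9 (0.80, SE 0.11), while Fgf7 (-0.58, SE 0.073) was lingual. The enamel knot ligand Fgf4, at 0.923, 0.996 and 1.31 CPM in Bell-L and 0.199, 0.468 and 0.402 CPM in Bell-B, was lingual as well (log2 fold change -1.60, SE 0.31, adjusted p = 3.76e-05). In Bell-W, Fgf4 was at 0.274, 0.511 and 2.42 CPM and the buccal Fgf9 at 1.215, 1.36 and 5.41 CPM. The highest value of each came from the library with the high epithelial sum. The part of epithelial RNA in these differences was not tested. Fgfr4, a receptor of muscle progenitors, was at 10.3, 9.15 and 9.37 CPM in Bell-L and 57.9, 60.2 and 60.8 CPM in Bell-B (log2 fold change 2.63, SE 0.056, adjusted p = 2.32e-33). The ETS factor Etv1 (0.88, SE 0.067) and the feedback inhibitor Il17rd (0.76, SE 0.038) were buccal too. Of 15 receptor and feedback genes 3 were thus buccal and 0 lingual, compared with 6.00% and 6.88% of all genes tested. Notch pathway calls were all buccal, 5 of 17, with the ligand Dll1 at 4.57, 4.91 and 5.27 CPM in Bell-L and 11.5, 11.1 and 11.8 CPM in Bell-B (log2 fold change 1.22, SE 0.090, adjusted p = 5.53e-15), the glycosyltransferase Lfng (0.78, SE 0.067) and the target Heyl (0.70, SE 0.052). In the hedgehog list 3 of 15 were buccal, among them the coreceptors Gas1 (0.78, SE 0.035) and Cdon (0.77, SE 0.032), which is also a muscle cell surface protein, and 1 was lingual, Foxf1.

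Of 11 IGF ligands and binding proteins 3 were called lingual and 1 buccal, while the list's median log2 fold change was 0.28, with 8 members positive and 3 negative. Igf1 was at 347, 378 and 377 CPM in Bell-L and 145, 158 and 144 CPM in Bell-B (log2 fold change -1.30, SE 0.036, adjusted p = 1.95e-29), and the proteases Pappa2 and Pappa (-1.08, SE 0.080) lay with it, whereas Igfbp6 was buccal (0.69, SE 0.13). Igf2 had a log2 fold change of 0.28 and was not called. Of 26 other growth factors and receptors, 5 were lingual and 6 buccal. Ostn, a secreted ligand of the natriuretic peptide clearance receptor, was at 4.46, 4.98 and 5.04 CPM in Bell-L and 0.166, 0.324 and 0.335 CPM in Bell-B (log2 fold change -4.12, SE 0.21, adjusted p = 6.47e-20), and Npr3, which codes for that receptor, was at 62.4, 62.9 and 67.1 CPM in Bell-L and 22.5, 22.7 and 23.4 CPM in Bell-B (log2 fold change -1.49, SE 0.046, adjusted p = 1.52e-27). Eda, the ectodysplasin ligand of tooth shape and number, was lingual as well (-0.85, SE 0.055). Nrg1, a neuregulin of nerve and muscle, was buccal at 3.77, 4.54 and 4.30 CPM in Bell-L and 18.9, 18.0 and 20.1 CPM in Bell-B (log2 fold change 2.17, SE 0.085, adjusted p = 3.82e-24), as was Met, the HGF receptor of migrating muscle precursors (0.89, SE 0.059).

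Neurotrophic genes were called in both directions, 4 lingual and 6 buccal of 16. Ntrk2, the receptor of BDNF, was at 349, 348 and 350.2 CPM in Bell-L and 166, 168 and 162 CPM in Bell-B (log2 fold change -1.08, SE 0.031, adjusted p = 7.36e-29), while Ntrk3, the receptor of neurotrophin-3, was at 34.7, 34.8 and 34.7 CPM in Bell-L and 75.1, 74.7 and 76.9 CPM in Bell-B (log2 fold change 1.12, SE 0.040, adjusted p = 1.9e-25). Each part thus held more of one of these related receptors. The nerve growth factor receptor Ngfr was lingual (-0.70, SE 0.036), and the ligand Gdnf was buccal (1.05, SE 0.10) with its coreceptor Gfra1 (0.66, SE 0.069).

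Of 14 dental follicle genes 6 were lingual and 4 buccal. Aspn, asporin of the periodontal ligament, was at 444, 499 and 486 CPM in Bell-L and 201, 219.8 and 196 CPM in Bell-B (log2 fold change -1.21, SE 0.038, adjusted p = 1.73e-27), and Tnc, tenascin-C, at 519, 507 and 513 CPM in Bell-L and 224, 221 and 222 CPM in Bell-B (log2 fold change -1.21, SE 0.031, adjusted p = 1.17e-30), next to Postn. The follicle list's buccal members included Acta2, the integrin Itga4 (1.49, SE 0.051) and Scx (1.14, SE 0.14), which muscle, migrating cells or tendon also express. Of 12 odontoblast and papilla genes none was lingual and 5 were buccal. They were Nes, an intermediate filament of odontoblasts and also of muscle and nerve precursors, at 82.6, 78.2 and 80.8 CPM in Bell-L and 233, 215 and 233 CPM in Bell-B (log2 fold change 1.49, SE 0.036, adjusted p = 1.22e-31), Crym at 6.19, 6.56 and 6.75 CPM in Bell-L and 15.4, 14.7 and 15.9 CPM in Bell-B (log2 fold change 1.24, SE 0.079, adjusted p = 5.48e-17), Smoc2 (0.67, SE 0.031), Dmp1 (0.95, SE 0.19) and Fgf3. Dmp1 lay at 1.19, 1.36 and 1.08 CPM in Bell-L and 2.68, 2.34 and 1.98 CPM in Bell-B.

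Mineralization genes divided, 5 lingual and 3 buccal of 20. Alpl, the alkaline phosphatase of mineralizing cells, was at 308, 307 and 289 CPM in Bell-L and 151, 149 and 152 CPM in Bell-B (log2 fold change -0.999, SE 0.032, adjusted p = 5.12e-27), and Enpp1, which makes the inhibitor pyrophosphate, at 36.9, 39.7 and 36.6 CPM in Bell-L and 18.6, 17.7 and 16.3 CPM in Bell-B (log2 fold change -1.11, SE 0.056, adjusted p = 3.49e-20). Phex (1.14, SE 0.10) and osteopontin, Spp1 (1.60, SE 0.14), were buccal. The bone regulator Runx2 was at 285, 298 and 298 CPM in Bell-L and 263, 270.0 and 261 CPM in Bell-B (log2 fold change -0.15, SE 0.031, adjusted p = 0.000134), below the fold limit.

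Collagens with a called difference were of several kinds. Of 33 collagens 5 were lingual and 7 buccal. Col8a1, a short-chain collagen of vessels and basement membranes, was at 263, 272 and 278 CPM in Bell-L and 92.6, 92.6 and 93.2 CPM in Bell-B (log2 fold change -1.55, SE 0.033, adjusted p = 1.92e-33), and Col25a1, a transmembrane collagen of developing muscle, at 21.4, 24.0 and 23.8 CPM in Bell-L and 116, 114 and 109.9 CPM in Bell-B (log2 fold change 2.29, SE 0.043, adjusted p = 2.8e-35). Col14a1, which binds the surface of collagen fibrils, was at 93.2, 95.9 and 93.9 CPM in Bell-L and 276, 272 and 278 CPM in Bell-B (log2 fold change 1.54, SE 0.032, adjusted p = 1.12e-33), while Col12a1, a fibril-associated relative, was lingual. Col1a1 was not called (log2 fold change 0.25, SE 0.033, adjusted p = 4.87e-08).

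Among 41 matricellular proteins and small proteoglycans, 12 were lingual and 9 buccal. Aspn, Omd and Ogn lie in a row with Ecm2 on chromosome 13 (49658286 to 49777977), and all 4 were lingual, at -0.65 for Ecm2, -1.21 for Aspn, -1.07 for Omd and -1.60 for Ogn. Kera, keratocan of cornea and tendon, was at 2.15, 2.25 and 2.25 CPM in Bell-L and 31.0, 35.1 and 31.1 CPM in Bell-B (log2 fold change 3.86, SE 0.088, adjusted p = 2.21e-32), whereas Lum, which lies near it on chromosome 10, was lingual at 741, 781 and 765 CPM in Bell-L and 527, 547 and 517 CPM in Bell-B (log2 fold change -0.52, SE 0.032, adjusted p = 1.42e-17). Fmod was at 20.7, 22.5 and 21.7 CPM in Bell-L and 68.3, 71.5 and 72.7 CPM in Bell-B (log2 fold change 1.71, SE 0.046, adjusted p = 8.35e-30) and Prelp at 6.88, 7.30 and 6.79 CPM in Bell-L and 28.7, 27.8 and 28.5 CPM in Bell-B (log2 fold change 2.02, SE 0.067, adjusted p = 1.17e-26), both on chromosome 1 and both buccal. Proteoglycan genes that lie near each other thus shared a direction in some places and not in others. Tendon genes were divided as well, with Scx buccal and the late marker Tnmd lingual at 25.3, 29.8 and 26.2 CPM in Bell-L and 14.2, 15.0 and 13.6 CPM in Bell-B (log2 fold change -0.93, SE 0.064, adjusted p = 7.61e-16). Of 17 cartilage genes 2 were lingual and 4 buccal, and Sox9 was not called (log2 fold change -0.23, SE 0.066, adjusted p = 0.00422).

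Of 34 matrix proteases and inhibitors 7 were lingual and 5 buccal. Adamts1 was at 285, 273 and 282 CPM in Bell-L and 150.0, 151 and 151 CPM in Bell-B (log2 fold change -0.89, SE 0.031, adjusted p = 8.41e-26), with Adamts20 (-1.02, SE 0.039), Adamts12 (-0.89, SE 0.035) and the membrane protease Mmp16 (-0.94, SE 0.041). Mmp17 (1.21, SE 0.082) and Mmp3 (2.83, SE 0.35) were buccal, the latter under 2 CPM in every library.

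Guidance genes for axons and vessels were called in both directions. The secreted repellent Sema3a was at 229, 231 and 232 CPM in Bell-L and 87.0, 87.1 and 82.6 CPM in Bell-B (log2 fold change -1.43, SE 0.033, adjusted p = 3.39e-32), and its relative Sema3e at 30.3, 30.4 and 32.6 CPM in Bell-L and 9.51, 12.1 and 9.86 CPM in Bell-B (log2 fold change -1.57, SE 0.068, adjusted p = 1.02e-22). Sema3c, in contrast, was buccal (0.74, SE 0.057), as were Sema5b (1.39, SE 0.066) and the receptor Plxna2 (0.94, SE 0.040). In all, 6 of 31 semaphorin, plexin and neuropilin genes were lingual and 9 buccal. Ntn1, netrin-1, was buccal at 35.2, 35.0 and 33.5 CPM in Bell-L and 105, 101 and 105 CPM in Bell-B (log2 fold change 1.59, SE 0.039, adjusted p = 2.39e-31), and the ephrin receptors Epha3 (-0.94, SE 0.034) and Epha7 (-0.94, SE 0.038) were lingual, in a list of 38 with 4 lingual and 9 buccal calls.

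Of 21 chemokine and receptor genes 8 were lingual, 2 were buccal and 11 were not called. Cxcl5 was at 23.5, 25.4 and 24.9 CPM in Bell-L and 5.43, 5.62 and 4.56 CPM in Bell-B (log2 fold change -2.24, SE 0.077, adjusted p = 4.05e-26) and Cxcl1 at 37.6, 40.5 and 42.7 CPM in Bell-L and 14.4, 14.0 and 13.9 CPM in Bell-B (log2 fold change -1.51, SE 0.058, adjusted p = 1.52e-24), both attractants of neutrophils. Ccl21a, of lymphatic vessels, was at 51.7, 48.0 and 51.7 CPM in Bell-L and 16.2, 14.3 and 14.7 CPM in Bell-B (log2 fold change -1.74, SE 0.055, adjusted p = 1.83e-27). Cxcl12, the stromal attractant of progenitor cells, was buccal at 173, 179.8 and 181 CPM in Bell-L and 357, 353 and 357 CPM in Bell-B (log2 fold change 1.00, SE 0.031, adjusted p = 1.6e-27).

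Cell cycle genes showed small differences in one direction. All 27 mitosis genes were higher in every buccal library than in any lingual one, at a median log2 fold change of 0.27, and none passed the fold limit. For comparison, 22.1% of all genes tested did not overlap with the buccal part higher. Mki67 was at 353, 353 and 355 CPM in Bell-L and 403, 414 and 391 CPM in Bell-B (log2 fold change 0.19, SE 0.031, adjusted p = 4.07e-06). Of 27 DNA replication genes 22 lay higher in every buccal library, and 1 was called, Ccne1, the cyclin of entry into S phase, at 34.3, 34.5 and 34.2 CPM in Bell-L and 53.7, 57.6 and 53.5 CPM in Bell-B (log2 fold change 0.68, SE 0.044, adjusted p = 1.39e-16).

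Of 20 imprinted growth genes 4 were lingual, namely Plagl1, Nnat (-0.68, SE 0.040), Zim1 (-0.66, SE 0.031) and Dlk1 (-0.53, SE 0.034), and none was buccal. In Bell-W, Nnat was at 61.6, 49.9 and 166 CPM, highest in the library with the high epithelial sum. The part of epithelial RNA in its difference was not tested. CDK inhibitors and p53 targets gave 2 lingual calls of 19, glycolysis and hypoxia genes 1 lingual and 3 buccal of 29, and cholesterol synthesis genes none of 20. Of 26 tested genes that the study names for this or another of its comparisons, 14 were lingual and 6 buccal. Many were chosen on these libraries, so the count is no independent evidence. The R-spondins Rspo1, Rspo2 and Rspo4 (0.15, 0.45 and 0.24) and the BMP antagonists Chrd, Chrdl2 and Nog (-0.05, 0.16 and 0.37) were not called. Of 13 mitochondrial, ribosomal and nuclear RNA genes read as signs of RNA quality, 1 was called, Rn18s-rs5. The 11 mitochondrial genes among them all had negative log2 fold changes, down to -0.32, that were too small to be called.

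The direction found at the bell stage was often that of the cap stage (E13), where lingual and buccal parts (Cap-L and Cap-B) were prepared in the same way. The stages share no libraries. Across the 20257 genes tested at both, log2 fold changes correlated with a Pearson coefficient of 0.575 and a Spearman coefficient of 0.301, which describes genes and not replicates. Of 1107 buccal DEGs tested at both stages, 691 (62.4%) were also called buccal at the cap stage, 32 (2.89%) were called lingual and 384 were not called there. Of 1336 lingual DEGs, 600 (44.9%) were called lingual, 78 (5.84%) buccal and 658 not. Over all genes tested at both stages, 10.1% were called buccal and 6.97% lingual at the cap stage.

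Whether a difference between the sides changed from cap to bell was tested with an interaction term in 1 fit of 12 libraries, where a positive value means a move toward the buccal part from cap to bell. At an adjusted p under 0.05 it was found for 7137 of 21931 genes (32.5%), 1384 of the 2723 bell-stage DEGs with a value among them. Buccal muscle genes among them moved both ways. Of 14 buccal regulators the interaction passed for 8 with a negative value and for 1, Isl1, with a positive one. Of 37 buccal contractile and junction genes it passed for 9 with a negative and 11 with a positive value. A difference that was wider at the cap stage was found for Pax7, at 5.40 there and 2.68 at the bell stage (interaction -2.73, SE 0.40, adjusted p = 3.01e-06), Myod1 at 4.80 and 2.65 (interaction -2.15, SE 0.19, adjusted p = 1.35e-10) and Myog at 3.58 and 2.06 (interaction -1.53, SE 0.14, adjusted p = 9.56e-10). For Myh3, at 4.21 and 3.91, the interaction (-0.30, SE 0.11, adjusted p = 0.0303) passed with all 12 libraries, but its adjusted p rose past the threshold in 9 of the 17 alternatives tried. These included leaving out any of the lingual cap libraries, buccal cap replicate 1 or 3, or lingual bell replicate 1 (values of -0.33 to -0.26). Isl1, at 2.90 and 4.44 (interaction 1.53, SE 0.28, adjusted p = 6.13e-05), and Myom2 of the sarcomere M-band, at 2.57 and 3.57 (interaction 1.00, SE 0.33, adjusted p = 0.0185), had the wider difference at the bell stage. For Myom2 the test no longer passed without lingual cap replicate 2 (0.69, adjusted p = 0.245) or with all 24 libraries in 1 fit (1.03, adjusted p = 0.146).

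Some genes were called in opposite directions at the 2 stages, and the 5 with the largest interaction in each direction are given here. Avpr1a, a vasopressin receptor, went from a log2 fold change of 4.27 in the cap-stage parts to -0.67 in the bell-stage parts, where it was at 4.88, 5.16 and 5.51 CPM in Bell-L and 3.68, 3.57 and 2.58 CPM in Bell-B (interaction -4.94, SE 0.23, adjusted p = 1.09e-16). Mybpc1 went from 3.63 to -0.98 (interaction -4.62, SE 0.16, adjusted p = 4.93e-20), the opposite of its direction at the cap stage. Mrgprf (3.22 to -0.72), Scg2 (2.08 to -1.75) and the transporter Slco5a1 (2.81 to -0.92) moved the same way.

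In the buccal direction, Fgf3 went from -1.91 to 0.70 (interaction 2.60, SE 0.17, adjusted p = 3.57e-13), a papilla ligand that was lingual at the earlier stage and buccal at the later one. The chloride channel Ano1, near it on chromosome 7, moved from -2.05 to 0.53 (interaction 2.57, SE 0.10, adjusted p = 3.76e-18). Nptx1 (-1.21 to 0.71), Adamts8 (-1.13 to 0.67) and the calcium-binding gene Hrc (-0.50 to 1.13) followed. In Bell-W, Fgf3 was at 25.9, 33.6 and 37.0 CPM, above every library of both bell-stage parts. Ano1 (42.2, 42.0 and 38.8 CPM) and Nptx1 (28.2, 30.4 and 30.3 CPM) lay above both parts as well, whereas Adamts8 and Hrc lay below both. The cause was not tested.

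**Figure D5:**
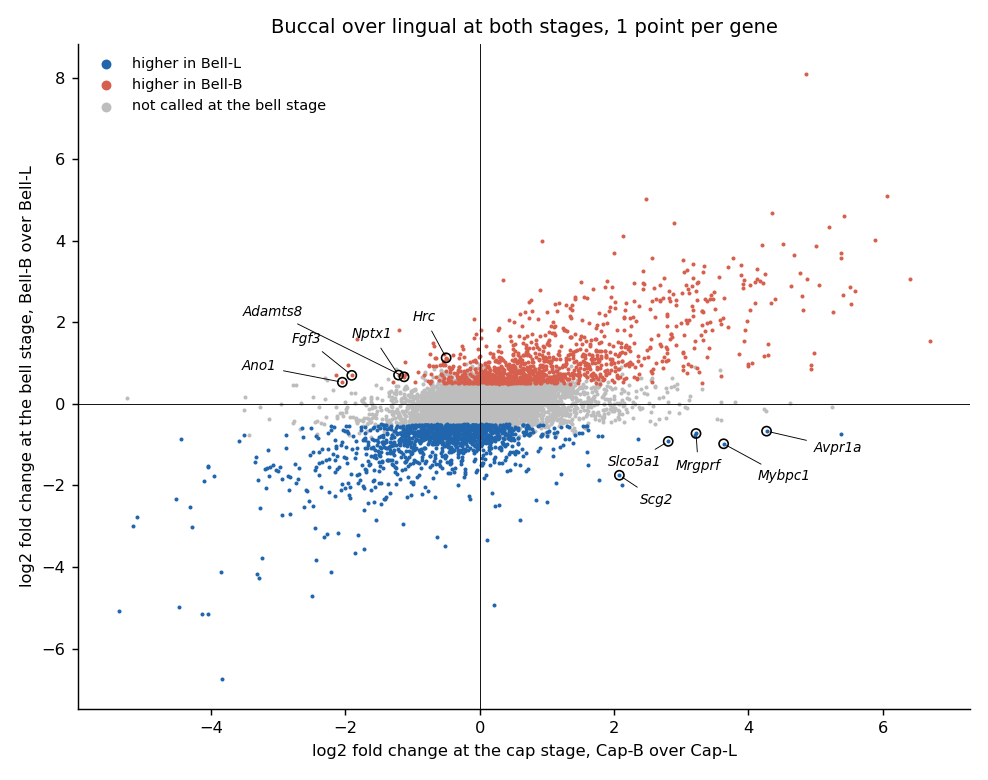
Log2 fold change of the buccal over the lingual part, with the cap stage on the x axis and the bell stage on the y axis, for genes tested at the bell stage with a cap-stage value, with bell-stage DEGs in blue (Bell-L) and red (Bell-B). The 10 circled genes were called in opposite directions at the 2 stages, from Avpr1a on the lower right to Fgf3 and Ano1 on the upper left.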

How the data were processed

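Mesenchyme of lingual and buccal parts of E15 mouse molar germs was profiled by RNA-seq, 3 libraries each. The deposited values are raw read counts per gene, made by the authors with featureCounts (Subread 2.0.0 per the file header) from read pairs on exons of Ensembl GRCm39, with strand ignored and reads matching several places or genes left out. The aligner is given differently in the study's methods and in the submitters' processing notes, which also list Trimmomatic 0.39. The labels and the methods name different library kits.

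Counts were normalized by TMM and genes filtered with filterByExpr in edgeR 4.0.16 (R 4.3.3). The quasi-likelihood test compared the 6 bell-stage libraries, and the interaction with stage used 12. A simulation with 200 changed genes recovered 200, with 5 false calls among 21181 genes. For the interaction it recovered 199 of 200, with 13 false calls among 21931 genes. The changed genes were not of low level and their folds lay well past the limit. Recovery at low counts or near the limit was therefore not measured. The 3 counts of the floor and all counting intervals (exact, 95%) cover counting error only.

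The gene lists and the members described were chosen with earlier results of these data known. Named genes are the 15 with the largest fold in each direction at an average log2 CPM of at least 2, the 10 with the largest difference in CPM, up to 6 called members per list and direction, genes the study names, and the 5 largest interactions in each direction among genes called oppositely at the cap stage. Others, among them junction genes, the promoters of Chrng and Mylpf, and neighbours in gene rows, were chosen after their values were seen. Alternatives were other normalizations, DESeq2 1.42.0, other filters and folds, all 24 libraries, a replicate block and leaving out each library.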

Additional observations from a re-analysis of the deposited data

Results flagged for a closer look

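These genes had a difference between lingual and buccal parts that itself differed between the cap and the bell stage, by edgeR's quasi-likelihood test of the interaction with Benjamini-Hochberg adjustment. The test passed for 7137 genes in all, so single members are common. The interaction, in log2 units with positive values toward the buccal part at the bell stage, was -4.94 for Avpr1a, -4.62 for Mybpc1, -3.95 for Mrgprf, -3.83 for Scg2 and -3.73 for Slco5a1. It was 2.60 for Fgf3, 2.57 for Ano1, 1.91 for Nptx1, 1.79 for Adamts8 and 1.62 for Hrc. Muscle genes with the same kind of difference were Pax7 (-2.73), Myod1 (-2.15), Myog (-1.53) and, toward the buccal part, Isl1 (1.53) and Myom2 (1.00). For Myh3 (-0.30) the test no longer passed in 9 of the 17 alternatives tried. The germs of the 2 stages were cut separately, so the place of the cut and the stage cannot be told apart.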

How the results depend on the processing

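The counts of 1458 lingual and 1271 buccal DEGs stayed within 1.5 times under RLE (1449 and 1278) and upper quartile scaling (1428 and 1298), DESeq2 (1236 and 1051), no filter (1553 and 1433), at least 10 counts in every library (1316 and 1034), and all 24 libraries in 1 fit (1103 and 975). Without 1 library the lingual count was 1416 to 1462 and the buccal count 1220 to 1259, and 2072 DEGs kept their call whichever of the 6 libraries was left out. Without a limit on the fold 4094 and 3752 genes passed, and with a limit of 1, 494 and 605.

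Same-numbered libraries of the parts did not all deviate together (correlations of 0.00927, 0.0509 and 0.00476 over all genes, and 0.0686, 0.387 and -0.182 over the 7154 genes at an average log2 CPM of 5 or more), so the numbers were not taken as pairs. The replicate block gave 1471 and 1288 calls, 2719 of them shared with the fit without it, and for the interaction 3821 genes toward the lingual and 3058 toward the buccal side.

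The interaction passed for 3957 genes toward the lingual and 3180 toward the buccal side, but for 1397 and 1184 with all 24 libraries in 1 fit, and the cause was not tested. Without 1 library the counts were 3357 to 3929 and 2742 to 3557.

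Of the genes named, Alx1, Barx1, Epcam, Fgf4, Fgf9, Foxd3, Krt13, Nnat, Notum, Rn18s-rs5, Tfap2a and Zim1 lost their calls with all 24 libraries in 1 fit, in the same direction. Genes near the count floor, such as Hoxc4, Zic4 and Lefty1, are limited by depth, and a smaller difference in them was not detectable.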

Other observations

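Several genes of mast cell granules were called buccal. They were picked after their values were seen, so they do not stand for mast cell genes as a class. Cpa3, the carboxypeptidase of mast cell granules, was at 11.7, 12.3 and 10.7 CPM in Bell-L and 49.6, 55.5 and 49.2 CPM in Bell-B (log2 fold change 2.15, SE 0.060, adjusted p = 2.66e-29). The chymase Cma1 had a log2 fold change of 2.52, SE 0.063, and the related proteases Mcpt2, Mcpt4 and Gzmb, which lie in a row with it on chromosome 14, had 3.36, 3.76 and 1.91. A second row on chromosome 17 holds the tryptase genes Prss34, Tpsab1, Tpsb2 and Tpsg1, with log2 fold changes of 2.56, 2.89, 3.45 and 3.93, all called buccal. Hdc, which makes histamine, was also higher (1.91, SE 0.059). Kit, the receptor that mast cells share with melanocytes, was not called (log2 fold change -0.05, SE 0.043, adjusted p = 0.374).

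Several interferon-induced genes were called lingual, and they too were picked after their values were seen. Oas2, an antiviral synthetase, was at 4.88, 4.98 and 5.54 CPM in Bell-L and 1.33, 1.66 and 1.44 CPM in Bell-B (log2 fold change -1.80, SE 0.14, adjusted p = 4.89e-14). Its neighbours on chromosome 5, Oas1b, Oas1g and Oas1a, had log2 fold changes of -0.95, -1.53 and -1.92. On chromosome 1, the 6 related genes Ifi207, Ifi204, Mndal, Ifi211, Ifi203 and Ifi202b ranged from -1.36 to -0.98. They are near copies of each other and reads that match several were left out, so the values of single members are uncertain. Isg15 (-1.04, SE 0.26) and Irf7 (-0.93, SE 0.13) were lingual too.

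In all, 13 lingual and 6 buccal runs of at least 4 neighbouring protein-coding genes were called in the same direction, with 87 genes between them and at most 6 in a run. Besides the rows named so far, a buccal run on chromosome 7 held the troponin genes Tnni2 (1.92) and Tnnt3 (1.52), and a buccal run on chromosome 1 held Mybph (3.05) and Myog. How many such runs chance would give was not tested.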
